A study of Mus musculus with 4 samples.

Results

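The cells described here were 1182 Myh11-positive cells of the mouse thoracic aorta, out of 38316 deposited cells, each chosen for transcripts of at least 3 of 9 genes, among them Dlx5 and Msx2, which are known from the embryonic pharyngeal arches. A cell was a member when it held at least 1 UMI (unique molecular identifier, a counted transcript) of Myh11, the smooth muscle myosin heavy chain, and fewer than 10 UMIs of the macrophage genes Lyz2, C1qa and C1qb together. In addition, at least 3 of 9 genes had to be detected: Prss12, Adamtsl1, Lamc3, Dlx5, Prrx2, Frzb, Msx2, Dlx6 and Tfap2b, called the rule genes below. Members were compared with the 28559 other cells that held at least 3 UMIs of Myh11. The members were chosen from the same counts, so their levels are described without a test.

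The study asked what STING, the adaptor of the cytosolic DNA-sensing pathway, does in the aorta. Each of its 4 groups was 1 library of cells from 3 pooled mice, sorted for viability and captured with 10x Genomics 3′ v3 chemistry: whole-body Sting knockout mice (KO) with angiotensin II (AngII), wild type mice (WT) with AngII, KO mice with saline and WT mice with saline. AngII, a vasoconstrictor peptide, was infused for 7 days in mice on a high fat diet for 5 weeks, whereas saline mice ate a normal diet, so diet and infusion cannot be told apart. The labels name neither strain nor age nor sex of the mice. With 1 library a group there is no replicate check, and every interval below covers counting error only.

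Smooth muscle of the aortic arch and of the arteries leaving it descends from the cardiac neural crest, whereas that of the descending thoracic aorta descends from the somites. Dlx5 and Dlx6 are homeobox factors that pattern the pharyngeal arches below endothelin A receptor signalling, Msx2 is a homeobox factor induced by BMP signals, and Tfap2b (AP-2 beta) is a neural crest factor that in humans, when mutated, causes patent ductus arteriosus. Hox genes are switched on along the body axis in the order of their paralogue groups, with low-numbered groups reaching closest to the head.

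The members were found in all 4 libraries: 265 in KO AngII, 289 in the WT AngII library, 325 in KO saline and 303 in WT saline. As a share of the cells with Myh11 and under the macrophage limit they made up 4.26% in KO AngII (95% exact Clopper-Pearson interval 3.77 to 4.79), 4.62% in the WT AngII library (4.11 to 5.17), 2.83% in KO saline (2.53 to 3.15) and 3.81% in WT saline (3.4 to 4.25). The AngII libraries were deeper, with median UMIs per cell of 9294 in KO AngII and 9938 in WT AngII against 6071 in KO saline and 5888 in WT saline, and a rule that needs 3 detected genes takes more cells at greater depth. When each cell was thinned to 3000 UMIs, the share was 1.54% in KO AngII (1.23 to 1.90), 1.61% in the WT AngII library (1.30 to 1.97), 1.45% in KO saline (1.22 to 1.71) and 2.06% in WT saline (1.75 to 2.41). At 3000 UMIs WT saline thus had the highest share, with an interval that overlapped those of both AngII libraries but not that of KO saline. At 5000 UMIs the share was again highest in WT saline, at 2.71% (2.30 to 3.17), and that interval overlapped the one of KO saline, at 1.97% (1.67 to 2.32). Cells that held fewer UMIs were left out: at 3000 UMIs 0 cells of both AngII libraries, 2104 of KO saline and 755 of WT saline. At 5000 UMIs this took out 658 cells of KO AngII (7.73%) and 425 of WT AngII (5.00%). Of KO saline it took out 4477 (37.1%) and of WT saline 3293 (35.6%).

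**Figure D1:**
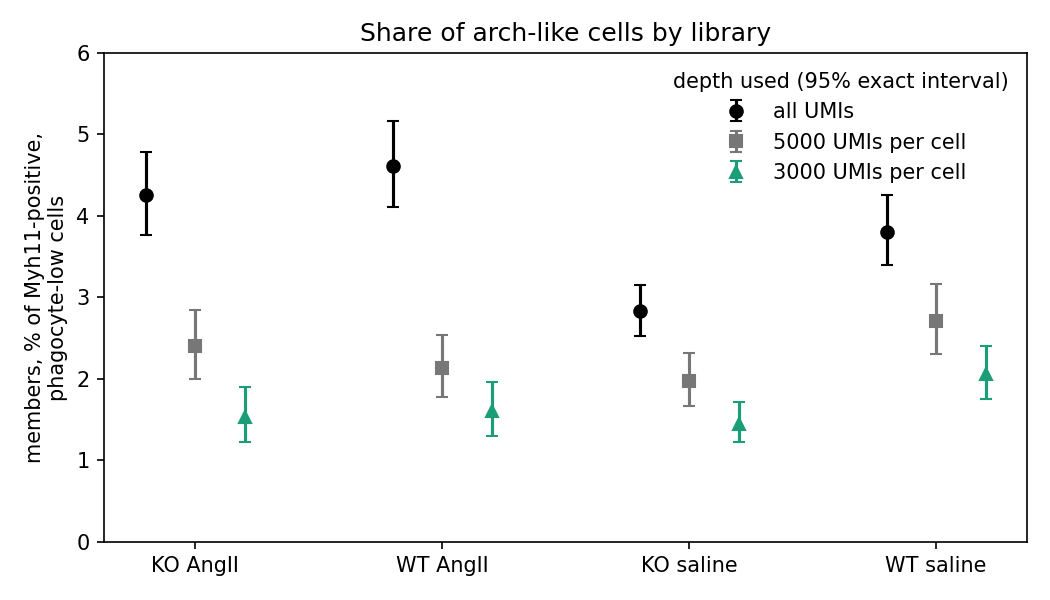
Share of members among the Myh11-positive, macrophage-low cells of each library (y axis, percent), at the deposited depth and after thinning each cell to 3000 or 5000 UMIs; bars are 95% exact intervals for counting error. At the deposited depth the AngII libraries lay highest (4.26% and 4.62%), and after thinning WT saline did (2.06% at 3000 UMIs).

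Libraries held 60064038 to 94698727 UMIs over the same 17524 genes. Pairs of libraries shared 92 to 148 cell barcodes, and no barcode was a member in both of its libraries (0 of them in each of the 6 pairs). Tmem173, which encodes STING, gave 16 UMIs in KO AngII members and 15 in WT AngII members, and 3 in KO saline members and 3 in WT saline members. Over all cells it gave 578 UMIs with KO and AngII and 637 with WT and AngII, and 102 with KO and saline and 105 with WT and saline, so the libraries labelled KO were not short of it. Which part of the gene was altered is not stated, and 3′ counts from outside that part cannot check the genotype; KO below means the library labelled KO.

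Of the 9 rule genes, 5 had a start window in the RefSeq promoter table (GRCm38.p6), and so had Dlx6os1, a non-coding antisense RNA that runs across Dlx6 and is described below. Homeodomain factors such as the Dlx and Msx proteins recognise an AT-rich core, and the windows were searched on both strands for TAATT, whose reverse complement is AATTA. A start in this table need not be the first of its gene. The 250 bases before a RefSeq start of Tfap2b and of Dlx6os1 are shown, 5′ to 3′ on the gene's strand with matches in capitals. Among the windows that overlap no annotated UTR they held the most matches.
Tfap2b: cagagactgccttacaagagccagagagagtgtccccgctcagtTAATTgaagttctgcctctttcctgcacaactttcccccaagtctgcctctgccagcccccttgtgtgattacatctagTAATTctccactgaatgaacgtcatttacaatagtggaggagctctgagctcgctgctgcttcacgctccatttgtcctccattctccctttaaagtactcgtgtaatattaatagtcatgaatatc
Dlx6os1: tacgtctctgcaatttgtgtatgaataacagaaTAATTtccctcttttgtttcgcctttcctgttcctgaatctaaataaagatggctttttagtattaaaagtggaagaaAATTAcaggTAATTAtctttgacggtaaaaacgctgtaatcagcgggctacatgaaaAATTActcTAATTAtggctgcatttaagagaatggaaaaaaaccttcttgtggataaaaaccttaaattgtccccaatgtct
The Tfap2b window (chr1:19211804-19212053, plus strand) held 2 matches. It lies inside the gene (chr1:19208914-19238576) and so precedes a start downstream of the gene's first base. The Dlx6os1 window (chr6:6869534-6869783, minus strand, within an exon of a longer annotated transcript) held 7 in 5 separate runs. Msx2, whose window overlaps an annotated UTR and is not printed, held 3 matches in 2 runs. Prss12 held 1 match, and Prrx2 and Frzb held 0. The Prrx2 window (chr2:30845117-30845366) also lay inside its gene (chr2:30834972-30881251). So did the Msx2 window (chr13:53472781-53473030, in the gene at chr13:53466884-53473074). Of all 32851 windows of this length, 25% held the motif, 6.62% held at least 2 runs and 0.134% held at least 5. A match describes these letters only and shows no binding.

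The arch transcription factors Dlx5, Dlx6, Msx2 and Tfap2b were each found in a minority of members. Dlx5 was detected in 29.4% of KO AngII members, 34.6% of WT AngII, 38.2% of KO saline and 47.9% of WT saline members, against 0.37%, 0.54%, 0.60% and 0.68% of the other cells of the same libraries. Dlx6 was detected in 15.5% to 35.0% of members, Msx2 in 17.7% to 31.7% and Tfap2b in 12.5% to 27.4%. At least 1 of these 4 factors was seen in 51.7% of KO AngII members, 58.5% of WT AngII, 72.3% of KO saline and 79.5% of WT saline members. The other rule genes code for secreted or matrix proteins and a homeobox factor, and most of them were detected more often. Prrx2, a paired-related homeobox factor of arch mesenchyme, was detected in 66.0% to 90.6% of members, and Frzb, a secreted Wnt antagonist, in 74.5% to 88.3%. Lamc3, the laminin gamma 3 chain, was detected in 62.6% to 79.5%, Prss12, the secreted protease neurotrypsin, in 43.2% to 54.7%, and Adamtsl1, a matrix glycoprotein, in 32.5% to 45.7%.

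In level, the 4 factors were lower in the members of the AngII libraries. Levels are given as CPM, the summed UMIs of a gene per 1000000 UMIs of the same cells. Dlx5 had 32.3 CPM in KO AngII members, 41.5 in WT AngII members, 68.0 in KO saline members and 112 in WT saline members. Msx2 had 22.4 CPM in KO AngII members, 29.2 in WT AngII members, 60.4 in KO saline members and 56.7 in WT saline members. Tfap2b had 18 CPM in KO AngII members, 14.9 in WT AngII members, 50.9 in KO saline members and 50.3 in WT saline members. These values depend on which cells the rule admits, and the part of the greater depth of the AngII libraries in them was not tested.

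Each rule gene was also measured in cells chosen by at least 3 of the other 8, so that its own count played no part in the choice of those cells. Msx2 then had 20.9 CPM in KO AngII, 27.0 in the WT AngII library, 55.3 in KO saline and 51.3 in WT saline, against 0.312, 0.273, 0.718 and 0.724 CPM in the other cells of the same libraries, with log2 ratios of 6.06 to 6.62. Dlx5 had 28.6, 37.2, 62.2 and 104 CPM in the same order, against 0.520, 0.786, 1.29 and 1.58 CPM, with log2 ratios of 5.56 to 6.04. The ratios were 5.92 to 6.72 for Dlx6, 5.49 to 6.15 for Adamtsl1, 4.90 to 5.93 for Prss12 and 4.76 to 6.08 for Tfap2b. Frzb (3.31 to 3.69), Lamc3 (3.22 to 3.48) and Prrx2 (3.47 to 4.61) were less selective. The list of rule genes was itself chosen with earlier results of these data known. High ratios in cells picked by the other genes of the list, and the paired detection below, are therefore not independent of that choice. Within the Myh11-positive cells, Dlx6 was detected 39.0 to 43.7 times as often in cells with Dlx5 as in cells without it. Tfap2b was detected 26.1 to 69.4 times as often in cells with Msx2 as in cells without it. Both were among the highest ratios of the rule gene pairs, and pairs with Frzb were among the lowest. Frzb was detected 1.64 to 2.45 times as often with Lamc3 as without it. With Prrx2 it was detected 1.37 to 2.42 times as often as without it. Median UMIs of cells with and without Dlx5 were 10372 and 8968.5 in KO AngII, 10620.5 and 10251 in WT AngII, 7340.5 and 6146.5 in KO saline, and 7110.5 and 6202 in WT saline. The 7 given markers (Dlx5, Dlx6, Msx2, Prss12, Adamtsl1, Lamc3 and Frzb) are all rule genes. Members were chosen by these same counts, so the sum had to be higher in members than in the other Myh11 cells. Their summed level was 619 to 980 CPM in members and 40.1 to 53.1 CPM in the other Myh11 cells. In cells over the macrophage limit, a cell type that should lack these markers, it was 5.92 to 33.1 CPM. In fibroblast-type cells, with at least 10 UMIs of Dcn, Lum and Pdgfra together and fewer than 3 of Myh11, some of them members, it was 190 to 272 CPM.

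The smooth muscle label held only in part. All 10 smooth muscle markers were detected in the members, with a summed level of 23988 CPM in KO AngII members, 20788 in WT AngII members, 31531 in KO saline members and 26579 in WT saline members, against 39407, 37953, 48402 and 45342 CPM in the other cells of the same libraries. The median member held 7 to 9 UMIs of Myh11 and the median of the other cells was 10 to 13. Members needed 1 UMI of Myh11 and the comparison cells 3, so the cut-offs by themselves favour a higher median in the comparison cells. Under 3 UMIs were held by 24.9% of KO AngII members, 25.6% of WT AngII, 14.2% of KO saline and 15.2% of WT saline members. Myh11 is also among the 10 markers summed above. Fibroblast transcripts were also present. At least 10 UMIs of Dcn, Lum and Pdgfra together were held by 87 members of KO AngII (32.8%), 82 of WT AngII (28.4%), 54 of KO saline (16.6%) and 35 of WT saline (11.6%), against 2.20% to 4.36% of the other cells. The median Myh11 of these members was 1 to 3 UMIs. All 10 fibroblast markers were detected in members, with a summed level of 11472 CPM in KO AngII members, 11925 in WT AngII members, 3972 in KO saline members and 3738 in WT saline members, against 4077, 4485, 1803 and 1729 CPM in the other cells. Each result below was therefore also computed after both the members and the other cells with at least 10 such UMIs were removed, which left 178 members in KO AngII, 207 in the WT AngII library, 271 in KO saline and 268 in WT saline. The members remaining are called the fibroblast-low members.

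Markers of other cell types were summed in the same way. Mononuclear phagocyte markers summed to 17.5 to 77.7 CPM in members against 26.0 to 242 CPM in other cells. Lyz2, C1qa and C1qb are among these markers, and the rule limits them in members but not in the other cells. The lower sum in members therefore follows from the choice of cells. Of 8 endothelial markers 5 to 7 were detected, at a sum of 40.4 to 152 CPM in members and 26.8 to 108 CPM in other cells. Schwann cell markers, which would mark the other neural crest lineage of the vessel wall, summed to 11.4 to 33.2 CPM in members and 3.30 to 5.22 CPM in other cells. In the fibroblast-type cells they summed to 27.9 to 71.1 CPM. Chondrocyte markers summed to 280 to 446 CPM in members and 65.5 to 151 CPM in other cells, with 0 UMIs of Lect1. In WT saline members 366 of the 419 CPM were Cytl1. Pericyte markers summed to 1453 to 2218 CPM in members and 423 to 1232 CPM in other cells; the sum was carried by Rgs5, and Higd1b and Vtn were at 0. The part of these markers in the results below was not tested.

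Of the 7914 genes with enough counts, 185 (2.34%) were at least 2-fold higher in members than in the other Myh11 cells in all 4 libraries. At least 2-fold lower were 25 (0.316%). The rule genes, Myh11 and the macrophage genes were not taken out of these counts, and the rule genes are among the higher ones. Library by library, the higher and lower genes numbered 550 (6.12%) and 151 (1.68%) of 8994 in KO AngII, 634 (6.75%) and 108 (1.15%) of 9386 in WT AngII, 443 (5.07%) and 82 (0.939%) of 8733 in KO saline, and 469 (5.61%) and 115 (1.38%) of 8353 in WT saline. These genes are a description of the chosen cells, since any gene that travels with the rule genes had to appear. The 14 genes named as higher were those outside the rule with the highest lower interval bounds. They code for transcription factors, surface receptors and secreted proteins, besides the non-coding Dlx6os1. Coch, a secreted matrix protein known from the inner ear, had 7.45 CPM in KO AngII members, 8.31 in WT AngII members, 32.2 in KO saline members and 16.5 in WT saline members, against 0.104, 0.0483, 0.220 and 0.274 CPM in the other cells of the same libraries (log2 ratios 5.91 to 7.43). It was found in 5.66% to 9.85% of members, against 0.0527% to 0.164% of other cells. Dlx6os1 had 12.4 CPM in KO AngII members, 14.3 in WT AngII members, 19.1 in KO saline members and 20.6 in WT saline members, against 0.139, 0.161, 0.587 and 0.431 CPM in the other cells (log2 ratios 5.02 to 6.48). This RNA overlaps Dlx6 on the opposite strand (chr6:6820189-6871592 against chr6:6863334-6868568, GRCm38), beside Dlx5 (chr6:6877805-6882085), and whether counting used the strand is not stated, so reads of the pair may have been exchanged.

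Tshz2, a zinc finger factor, was more widely detected than Runx2, the other transcription factor among the 14 genes named as higher. It had 68.3 CPM in KO AngII members, 84.0 in WT AngII members, 146 in KO saline members and 195 in WT saline members, against 5.29, 5.25, 7.96 and 7.50 CPM in the other cells. Its log2 ratio was 3.69 (95% interval 3.43 to 3.95) in KO AngII, 4.0 (3.77 to 4.23) in WT AngII, 4.19 (4.0 to 4.39) in KO saline and 4.70 (4.50 to 4.90) in WT saline, and it was detected in 43.6% to 59.7% of members. Runx2, the transcription factor of bone formation, had 8.70 CPM in KO AngII members, 9.74 in WT AngII members, 9.94 in KO saline members and 14.2 in WT saline members, against 0.625, 0.595, 0.469 and 0.470 CPM in the other cells (log2 ratios 3.80 to 4.91). It rested on 25 to 34 UMIs a library, in 6.77% to 9.69% of members.

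Surface and signalling genes made up a further group. Negr1, a neuronal adhesion protein, had 9.32 to 29.7 CPM in members against 0.177 to 0.425 CPM in other cells, and Megf10, an engulfment receptor, 6.21 to 23.8 CPM against 0.0784 to 0.434 CPM. Gria3, a subunit of AMPA-type glutamate receptors, had 13.5 to 55.4 CPM in members against 1.5 to 4.74 CPM in other cells. Lpar1, a receptor for lysophosphatidic acid, had 32.3 to 46.1 CPM in members against 1.96 to 4.23 CPM in other cells, and Pianp, a surface protein, 13.5 to 34.6 CPM against 1.13 to 1.75 CPM. These genes were higher in members in each of the 4 libraries, with the smallest log2 ratio at 2.97 (Lpar1, WT AngII) and the largest at 8.25 (Megf10, WT saline).

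Sfrp2, a secreted Wnt modulator, had the highest level of the 14 genes: 1076 CPM in KO AngII members, 1317 in WT AngII members, 1365 in KO saline members and 478 in WT saline members, against 99.8, 105, 195 and 73.0 CPM in other cells (log2 ratios 2.71 to 3.65). It was detected in 69.3% to 84.3% of members. Gdf10, a BMP-like ligand, had 97.5 CPM in KO AngII members, 131 in WT AngII members, 116 in KO saline members and 43.0 in WT saline members, against 2.94 to 16.4 CPM in other cells. Both were lowest in WT saline members. Fbln1, the elastic fibre protein fibulin-1, had 112 to 163 CPM in members against 6.85 to 19.2 CPM in other cells, and Spock2, a proteoglycan, 8.39 to 50.3 CPM against 0.306 to 1.49 CPM. Dio2, which activates thyroid hormone, had 20.3 to 50.9 CPM in members against 2.16 to 4.53 CPM in other cells; its log2 ratios of 3.23 to 3.70 became 0.85 to 3.21 in fibroblast-low members. The mean log2 ratio of all 14 genes named as higher stayed above 1 in fibroblast-low members; for Sfrp2 the ratios were 2.82 to 4.02 there.

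The genes that were lower in members included receptor, adhesion and contractile genes of smooth muscle. P2rx1, the ATP-gated channel through which sympathetic nerves contract arteries, had 6.21 CPM in KO AngII members, 4.30 in WT AngII members, 3.18 in KO saline members and 0.915 in WT saline members, against 45.6, 27.1, 18.4 and 13.3 CPM in other cells. Its log2 ratio was -2.87 (-3.59 to -2.24) in KO AngII, -2.66 (-3.50 to -1.93) in WT AngII, -2.54 (-3.75 to -1.55) in KO saline and -3.87 (-6.92 to -2.01) in WT saline, on 2 to 20 UMIs in members. Ppp1r14a (CPI-17), an inhibitor of myosin phosphatase, had 389 to 536 CPM in members against 833 to 1177 CPM in other cells; in fibroblast-low members its log2 ratios were -1.29 to -0.67. Mylk4, a kinase of the myosin light chain kinase family, had 71.7 to 113 CPM in members against 187 to 280 CPM in other cells. Bcam, a laminin receptor, had 130 to 223 CPM in members against 412 to 690 CPM in other cells, and Itga5, the fibronectin receptor chain, 46.9 to 117 CPM against 107 to 253 CPM. Tinagl1, Ccdc3, P3h2 and Ccdc42 were also at least 2-fold lower in all 4 libraries. These differences depended on the threshold of rule genes. When 2 rule genes sufficed, 1 of the 10 genes named as lower kept a mean log2 ratio below -1 (-1.42 to -0.54 over the 10), and the lower genes numbered 6 in place of 25. With at least 3 UMIs of Myh11 in members, 8 of the 10 kept it.

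**Figure D2:**
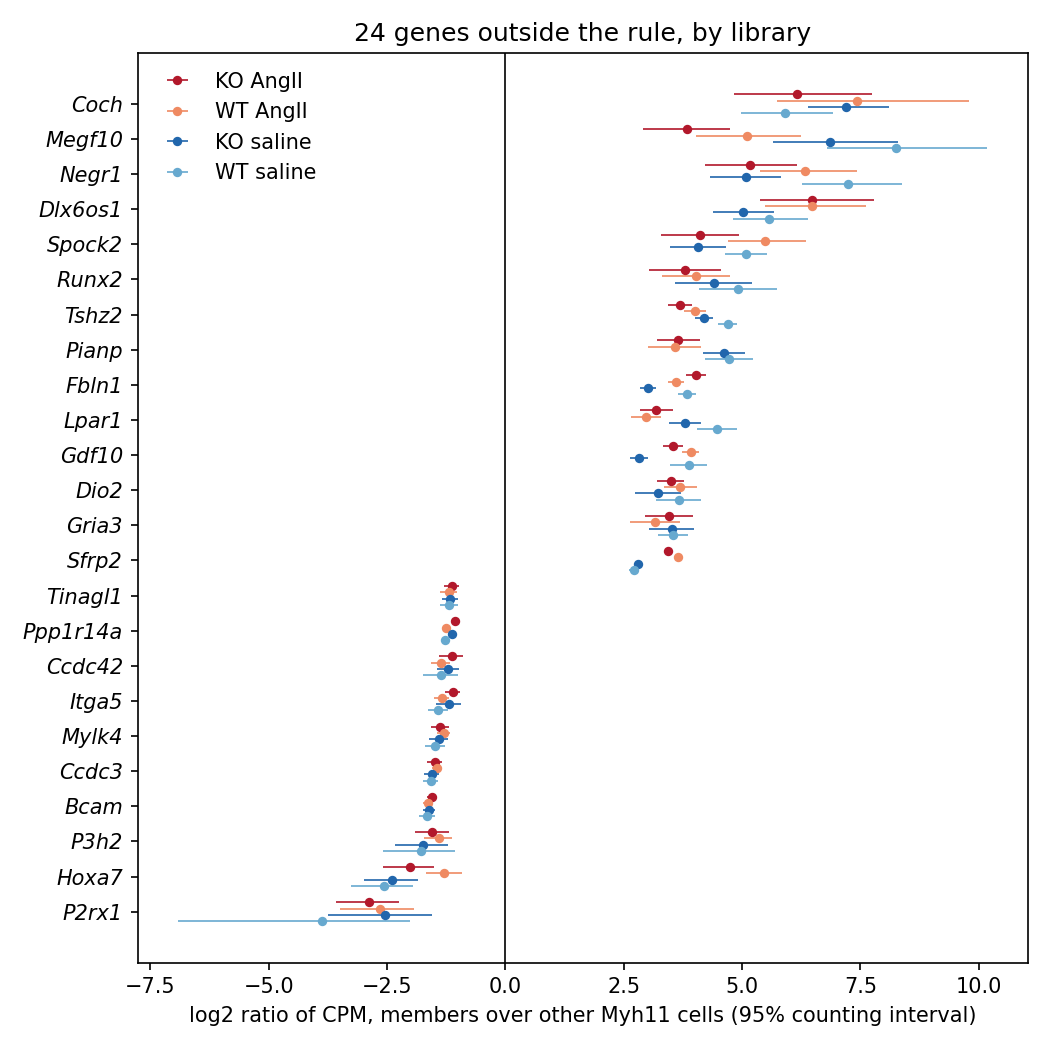
Log2 ratio of CPM, members over the other Myh11 cells (x axis), for the 24 genes outside the rule that were named by their interval bounds, 14 higher and 10 lower, 1 point per library with its 95% counting interval. The 14 genes named as higher lay above 2.7 and the 10 named as lower below -1 in each library.

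The calls depend on the scaling. The median log2 ratio over all 7914 genes was 0.09 by CPM and -0.10 with TMM factors, and the split of 185 higher and 25 lower genes became 151 and 46. The mean log2 ratio of each of the 24 named genes kept its direction under both scalings.

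Position along the body axis was read from the Hox genes, none of which was in the rule. Hoxa7 was among the genes named as lower: it had 9.63 CPM in KO AngII members, 16.9 in WT AngII members, 11.1 in KO saline members and 9.61 in WT saline members, against 39.1, 41.2, 58.2 and 57.2 CPM in other cells. Its log2 ratio was -2.02 (-2.58 to -1.51) in KO AngII, -1.29 (-1.68 to -0.91) in WT AngII, -2.39 (-2.98 to -1.85) in KO saline and -2.57 (-3.27 to -1.96) in WT saline. Without the cells rich in fibroblast transcripts the ratios were -2.51, -1.64, -2.90 and -3.17 in the same libraries. Hoxb7 had 2.39 to 8.08 CPM in members against 15.0 to 19.9 CPM in other cells, and Hoxb8 0.457 to 4.35 CPM against 8.08 to 14.1 CPM. Low-numbered genes did not follow this pattern. Hoxa3 had 30.1 to 53.5 CPM in members against 23.3 to 42.8 CPM in other cells, Hoxa4 had 6.83 to 12.8 CPM against 3.59 to 4.69 CPM, and Hoxb4 had 14.9 to 41.0 CPM against 12.8 to 25.8 CPM. Hoxd4 had 1.55 CPM in KO AngII members, 2.87 in WT AngII members, 8.35 in KO saline members and 10.1 in WT saline members, against 0.19 to 0.42 CPM in other cells, on too few UMIs to be counted among the tested genes.

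Summed by paralogue group, the members held less of the thoracic-level Hox transcripts. Groups 7 to 9 (9 genes in the files) summed to 34.8 CPM in KO AngII members, 30.9 in WT AngII members, 17.9 in KO saline members and 14.2 in WT saline members, against 80.1, 70.3, 93.5 and 96.6 CPM in other cells. Groups 1 to 4 (10 genes) summed to 119 CPM in KO AngII members, 121 in WT AngII members, 197 in KO saline members and 188 in WT saline members, against 92.3, 118, 143 and 137 CPM in other cells. Groups 5 and 6 (6 genes) summed to 45.8 to 52.5 CPM in members and 46.2 to 79.8 CPM in other cells. Groups 10 to 13 (6 genes) were at 4.66 CPM in KO AngII members and 0 in the members of the other 3 libraries, against 17.7 CPM in the other KO AngII cells and 0.0804 to 0.803 CPM in those of the other 3 libraries. Of 31 Hox genes in the files, 12 had enough counts; 0 were at least 2-fold higher in all 4 libraries and 1, Hoxa7, was at least 2-fold lower. The labels do not say how far along the thoracic aorta a cell lay, so these levels have no position of their own to be set against.

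**Figure D3:**
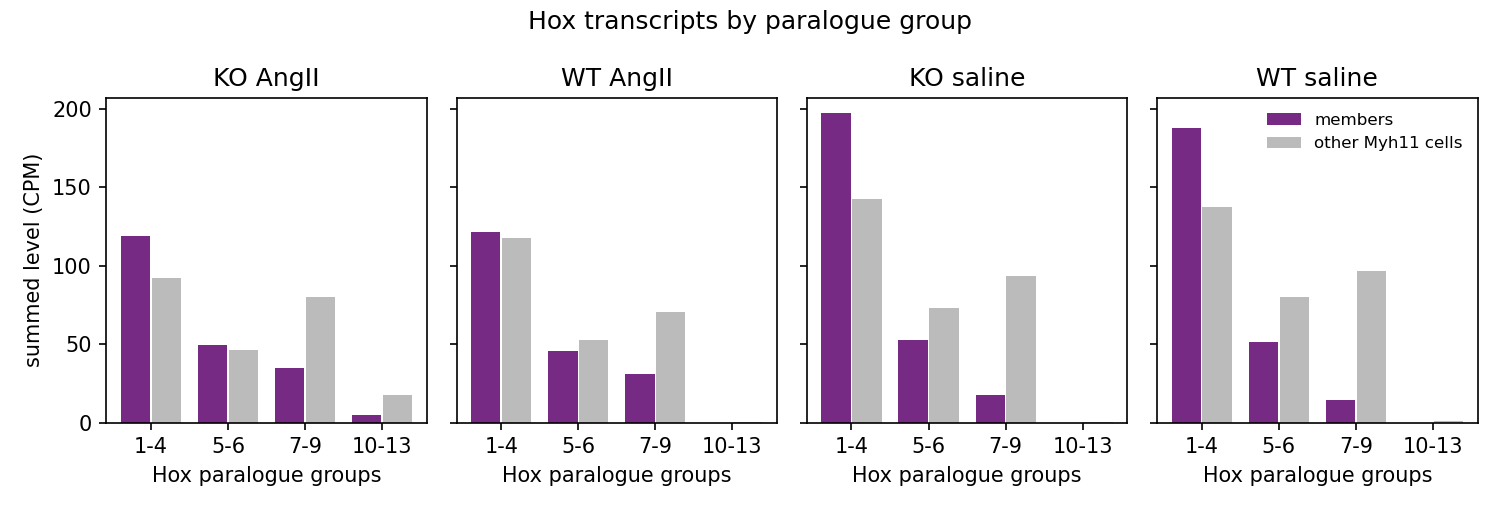
Summed level (y axis, CPM) of the Hox genes of paralogue groups 1 to 4, 5 and 6, 7 to 9 and 10 to 13 in members and in the other Myh11 cells, 1 panel per library. Groups 7 to 9 were lower in members of each library (14.2 to 34.8 CPM against 70.3 to 96.6 CPM).

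Cells just inside the threshold of 3 rule genes differed from cells well inside it. Exactly 3 rule genes were held by 126 members of KO AngII, 146 of WT AngII, 135 of KO saline and 109 of WT saline, and at least 5 by 89, 95, 122 and 128; all 9 were held by 2, 2, 2 and 6 cells. Cells with 2 rule genes, just outside, numbered 571 in KO AngII, 606 in the WT AngII library, 428 in KO saline and 396 in WT saline. Tshz2 had 28.7, 38.9, 45.3 and 33.7 CPM in the cells with 2 rule genes of these libraries, in that order, 33.9, 69.1, 82.5 and 125 CPM in those with 3, and 124, 103, 224 and 258 CPM in those with at least 5. Hoxa7 ran the other way: 41.8 to 61.7 CPM in cells with 0 rule genes, 29.5 to 35.9 CPM with 2, 16.4 to 21.7 CPM with 3 and 0 to 5.94 CPM with at least 5. Runx2 had 2.08 to 2.86 CPM with 2 rule genes, 2.95 to 6.06 CPM with 3 and 13.1 to 21.0 CPM with at least 5.

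Fibroblast transcripts were common at the threshold. The share of cells with at least 10 UMIs of Dcn, Lum and Pdgfra was 50.8% in KO AngII, 41.8% in the WT AngII library, 24.4% in KO saline and 21.1% in WT saline among members with 3 rule genes. Among members with at least 5 it was 7.87%, 3.16%, 9.84% and 2.34% in the same libraries, and among cells with 2 it was 35.0%, 27.4%, 20.1% and 16.7%. Dcn, the matrix proteoglycan decorin, had 1224 to 2324 CPM in members with 3 rule genes and 114 to 339 CPM in those with at least 5. Acta2, smooth muscle actin, had 9437 to 15514 CPM in members with 3 rule genes and 7629 to 13665 CPM in those with at least 5, against 19512 to 23698 CPM in cells with 0.

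**Figure D4:**
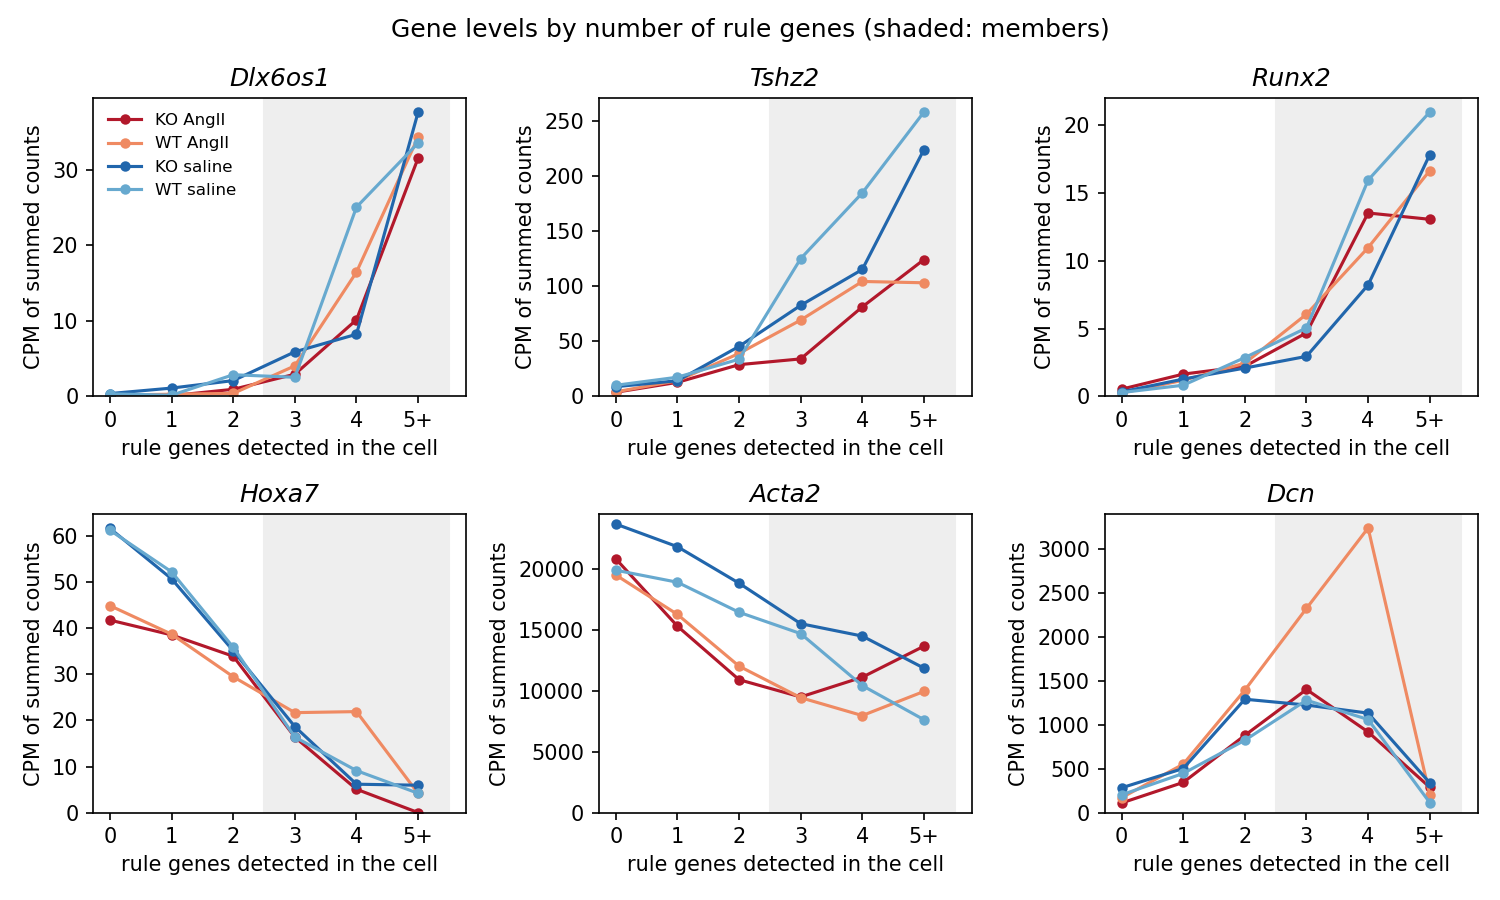
Level (y axis, CPM of summed counts) of selected genes in Myh11-positive, macrophage-low cells by the number of rule genes detected (x axis, 0 to 5 or more), 1 line per library; the shaded range holds the members. Tshz2 was higher and Hoxa7 lower in cells with at least 5 rule genes than in cells with 2, in each library.

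Gene groups were described by how many of their eligible genes were at least 2-fold apart in all 4 libraries, beside 2.34% higher and 0.316% lower over all genes. Of 15 neural crest and arch regulators outside the rule, 5 were higher and 0 lower, with a median log2 ratio of 0.98 against 0.09 over all genes. Ednra, the endothelin A receptor upstream of Dlx5 and Dlx6, had 10.6 CPM in KO AngII members, 17.2 in WT AngII members, 25.4 in KO saline members and 38.9 in WT saline members, against 1.68, 1.72, 3.04 and 2.78 CPM in other cells. Msx1 had 22.6 to 35.8 CPM in members against 9.14 to 13.1 CPM in other cells, Foxf1, a forkhead factor of visceral mesenchyme, 26.4 to 53.3 CPM against 5.5 to 15.5 CPM, and Snai1, a repressor of epithelial genes, 11.9 to 34.2 CPM against 0.725 to 4.70 CPM. The other gene of the 5 was Dlx6os1. In fibroblast-low members 12 genes of the list had enough counts, and 3 were higher, Dlx6os1, Msx1 and Foxf1, and 0 lower. The median there was 0.78, against 0.09 over all genes, and Ednra and Snai1 were not among the higher genes. Among 6 regulators of the second heart field and outflow tract 0 were higher and 0 lower (median -0.37); Tbx20 had 5.17 to 9.17 CPM in members and 11.0 to 14.6 CPM in other cells.

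The cartilage and bone list had 5 of 13 genes higher and 0 lower, with a median of 1.14: Runx2, Cytl1, Hapln1, Prg4 and Pthlh. Cytl1, a secreted protein known from cartilage, had 94.7 CPM in KO AngII members, 42.1 in WT AngII members, 323 in KO saline members and 366 in WT saline members, against 6.39 to 27.2 CPM in other cells. Pthlh, the parathyroid hormone-like relaxant of smooth muscle, had 12.1 to 33.9 CPM in members against 0.882 to 1.91 CPM in other cells. In fibroblast-low members 7 genes of the list had enough counts, and Cytl1 and Hapln1 were higher. Sox9, the master factor of cartilage, showed no constant difference: 90.1 CPM in KO AngII members, 96.3 in WT AngII members, 99.4 in KO saline members and 93.3 in WT saline members, against 92.6, 61.7, 26.4 and 16.3 CPM in other cells.

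No contractile gene reached a 2-fold difference in all 4 libraries. Of 20, 0 were higher and 0 lower, with a median log2 ratio of -0.48, or -0.23 in fibroblast-low members. Acta2 had log2 ratios of -0.82 in KO AngII, -0.97 in the WT AngII library, -0.76 in KO saline and -0.88 in WT saline, and Tagln, the actin-binding transgelin, -0.78, -0.91, -0.70 and -0.97 in the same libraries. Des, the intermediate filament desmin, had 39.4 to 96.0 CPM in members against 78.6 to 198 CPM in other cells. Among 15 vasoactive receptor and cyclic GMP genes only P2rx1 was called lower (median -0.51). Rgs5, a brake on G-protein signalling that is abundant in pericytes, was high in the members of every library: 1241 CPM in KO AngII, 1058 in WT AngII members, 1813 in KO saline members and 1175 in WT saline members, against 931, 250, 341 and 157 CPM in other cells. Of 16 calcium and excitability genes 1 was higher, Kcnj8, a subunit of ATP-sensitive potassium channels, with 56.7 to 93.3 CPM in members against 20.03 to 31.1 CPM in other cells (median of the list -0.17).

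Matrix genes separated by kind. Of 15 elastic fibre genes, Fbln1, Fbln5, Mfap2 and Mfap5 were higher and 0 lower (median 0.62), and the same 4 were higher in fibroblast-low members. Mfap2, a microfibril protein, had 57.6 to 89.4 CPM in members against 14.5 to 20.1 CPM in other cells. Of 20 collagen and fibrosis genes 4 were higher and 0 lower (median 0.74): Col14a1, Lum, Dcn and Fmod. In fibroblast-low members 18 had enough counts, 1 was higher, Col14a1, and 1 lower, Tnc, the adhesion-modulating tenascin C. Tnc had 93.8 CPM in KO AngII members, 45.3 in WT AngII members, 10.3 in KO saline members and 3.66 in WT saline members, against 157, 106, 33.6 and 24 CPM in other cells. Of 23 basement membrane genes 3 were higher, Lama2, Col4a3 and Nid1, and 1 lower, Itga5 (median -0.08); Lama2, the laminin alpha 2 chain, had 39.1 to 114 CPM in members against 7.88 to 13.3 CPM in other cells.

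Signalling lists gave few calls. Of 19 BMP genes Bmp4 and Gdf10 were higher (median 0.30), of 14 Wnt genes Sfrp2, Sfrp4 and Wnt5b were higher and Wnt16 lower (median 0.34), and of 18 TGF-beta genes Ltbp2 was higher (median 0.31). Ltbp2, a latent TGF-beta binding protein of microfibrils, had 214 CPM in KO AngII members, 262 in WT AngII members, 122 in KO saline members and 166 in WT saline members, against 32.5, 64.6, 23.3 and 33.5 CPM in other cells. Of 19 guidance genes Slit2 and Nrp1 were higher and Sema3a lower (median 0.29). Sema3a, a repellent of nerves and neural crest cells, had 4.04 CPM in KO AngII members, 3.15 in WT AngII members, 1.19 in KO saline members and 1.83 in WT saline members, against 11.8, 13.7, 13.4 and 14.5 CPM in other cells. Nrp1, a coreceptor of class 3 semaphorins, had 104 to 136 CPM in members against 29.4 to 44.5 CPM in other cells. The lists for Notch (8 genes), interferon-stimulated genes (5), the unfolded protein response (16), cholesterol synthesis (11), immediate early and heat shock genes (21) and the cell cycle (2) had 0 genes higher and 0 lower in all 4 libraries.

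The AngII libraries were then compared with the saline libraries within members. In KO members 435 of 8925 genes (4.87%) differed upwards by 2-fold or more and 651 (7.29%) downwards, with a median log2 ratio of -0.17 over all genes; with TMM factors that split was 554 and 431 and the median -0.03. In WT members 534 of 8638 (6.18%) were higher and 701 (8.12%) lower, with a median of -0.15. The share of members rich in fibroblast transcripts was larger in the AngII libraries, as given above, and many of the leading genes came from those cells. Cthrc1, a collagen-modifying protein of activated fibroblasts, had 338 CPM in KO AngII members against 3.98 in KO saline members, and 429 CPM in WT AngII members against 9.61 in WT saline members. In WT AngII 96.7% of its member UMIs lay in the members rich in fibroblast transcripts, and its log2 ratio of 5.48 (4.86 to 6.18) was 2.58 in fibroblast-low WT members.

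C1qtnf3, Ddah1 and Lbp gave 229, 170 and 127 UMIs in WT AngII members and 0 in WT saline members, and were at least 47.8-fold, 35.5-fold and 26.5-fold higher when 0 was set to a floor of 3 UMIs per library. Of these WT AngII UMIs 97.8%, 97.6% and 97.6% lay in members rich in fibroblast transcripts. The fibroblast-low WT AngII members held 5, 4 and 3 UMIs of them, too few for a ratio. In KO members the chemokines Ccl7 (545 CPM with AngII against 3.98 with saline) and Ccl2 (333 against 7.55 CPM) led, with log2 ratios of 7.10 and 5.46 in all members and 3.88 and 3.00 in fibroblast-low members. Col11a1, a fibrillar collagen chain, gave 152 UMIs in KO AngII members and 0 in KO saline members, at least 39.6-fold higher, and 96.1% of them lay in members rich in fibroblast transcripts. Otor, an inner ear and cartilage protein, gave 390 UMIs in WT AngII members, all in 1 cell, and 0 in WT saline members.

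Spp1, the matricellular protein osteopontin, was also present in fibroblast-low AngII members. It gave 287 UMIs in KO AngII members and 2 in KO saline members (89.1 against 0.795 CPM), a log2 ratio of 6.81 (4.94 to 9.86). In WT it gave 777 UMIs in AngII members and 1 in saline members (223 against 0.457 CPM), a log2 ratio of 8.93 (6.44 to 14.23). It was found in 18.5% of KO AngII members and 21.5% of WT AngII members, with 35.2% of its KO UMIs and 48.5% of its WT UMIs in members rich in fibroblast transcripts. Fibroblast-low members held 186 UMIs with AngII and 0 with saline in KO, and 400 with AngII and 0 with saline in WT; with 0 set to the floor of 3 UMIs per library, these give lower bounds of 6.08 in KO and 6.80 in WT on the log2 scale. In the other Myh11 cells the log2 ratio was 8.51 in KO and 6.70 in WT. Ube2c, a ubiquitin-conjugating enzyme of mitosis, gave 208 UMIs in 13.2% of KO AngII members and 0 in KO saline members, at least 54.2-fold higher.

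Genes that were lower with AngII included the hedgehog inhibitor Hhip and Cytl1. Hhip had 3.11 CPM in KO AngII members against 21.9 in KO saline members (log2 ratio -2.82, -3.95 to -1.83) and 2.58 CPM in WT AngII members against 40.3 in WT saline members (-3.96, -5.14 to -2.97). Cytl1 had 42.1 CPM in WT AngII members against 366 in WT saline members, where 180 of its 800 UMIs lay in 1 cell. Ppp1r1b, the phosphatase inhibitor DARPP-32, had 12.3 CPM in WT AngII members against 125 in WT saline members, and Galnt15, a glycosyltransferase, 9.17 against 92.9 CPM. All 3 of Hhip, Cytl1 and Ppp1r1b kept a WT log2 ratio below -2.5 in fibroblast-low members. Mt1, a metallothionein, had 1351 CPM in WT AngII members against 8908 in WT saline members, and Fabp4, a fatty acid binding protein, 59.0 against 437 CPM. In KO members the named genes were Dbp, a clock output factor (9.94 CPM with AngII against 75.9 with saline), the sarcomere genes Tcap (57.5 against 299 CPM) and Tnnt2 (15.2 against 78.3 CPM), Smim5 (9.63 against 52.9 CPM) and Rhobtb1 (7.14 against 39.8 CPM). Of the 197 UMIs of Tnnt2 in KO saline members 71 lay in 1 cell, and 41 of these members held any.

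By gene group, collagen and fibrosis genes made the broadest difference. In KO members 17 of 24 were higher by 2-fold or more (median 1.93; 1.57 in the other Myh11 cells), and in WT members 19 of 23 (median 1.84; 1.62 in other cells). In fibroblast-low members 12 of 22 were higher in KO (median 1.11) and 12 of 21 in WT (median 1.18). Col1a1, the main fibrillar collagen chain, had 3373 CPM in KO AngII members against 539 in KO saline members, and 2872 CPM in WT AngII members against 443 in WT saline members; its log2 ratios of 2.65 in KO and 2.70 in WT were 1.25 and 1.45 in fibroblast-low members. Col8a1, a short-chain collagen of injured arteries, had 300 CPM in KO AngII members against 23.1 in KO saline members and 231 CPM in WT AngII members against 9.15 in WT saline members. Its log2 ratios in fibroblast-low members were 3.24 in KO and 4.10 in WT. Elastin (Eln) had 9581 CPM in KO AngII members against 2846 in KO saline members and 10725 CPM in WT AngII members against 2640 in WT saline members. Its log2 ratios of 1.75 in KO and 2.02 in WT were 1.70 and 2.04 in fibroblast-low members. Of 16 elastic fibre genes 6 were higher in KO and 7 in WT.

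**Figure D5:**
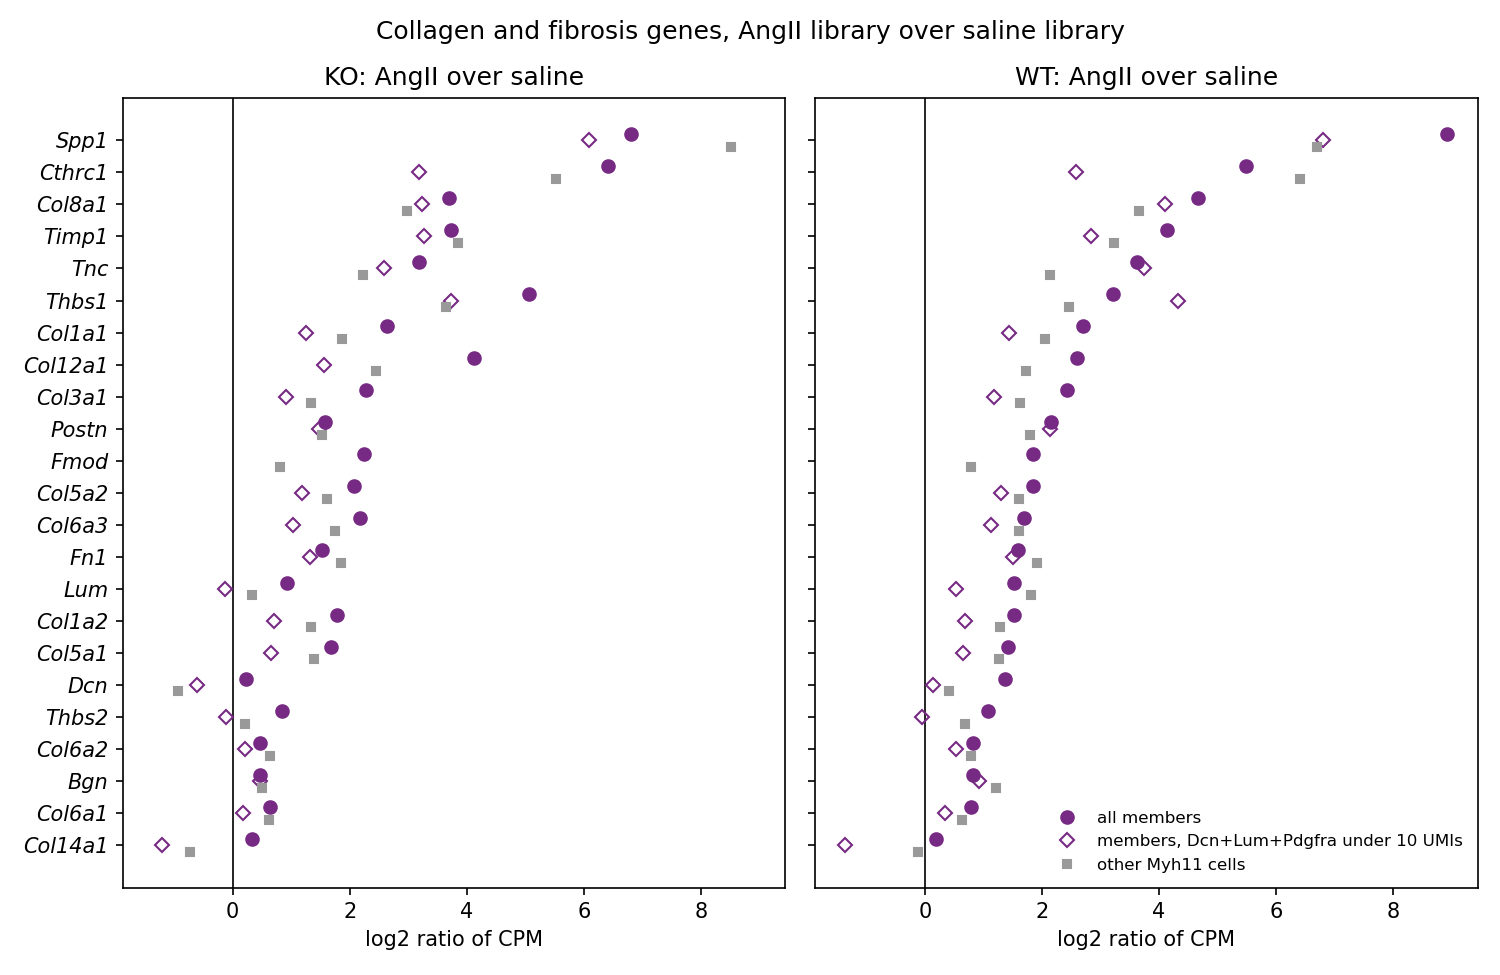
Log2 ratio of CPM, AngII library over saline library (x axis), for collagen and fibrosis genes in KO and WT, in all members (circles), fibroblast-low members (diamonds) and the other Myh11 cells (squares). Most points lay above 0, and for many genes, Col1a1 (2.70 and 1.45 in WT) among them, the diamonds lay nearer to 0 than the circles.

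The unfolded protein response list, chaperones and enzymes of the endoplasmic reticulum, had 2 of 18 genes higher in KO members (median 0.52; 0.42 in other cells) and 11 of 18 in WT members (median 1.14; 0.98 in other cells). In fibroblast-low members the counts were 2 of 18 in KO and 8 of 17 in WT. Hspa5, the chaperone BiP, had 589 CPM in KO AngII members against 360 in KO saline members, and 698 CPM in WT AngII members against 188 in WT saline members. Calr, calreticulin, had 719 CPM in KO AngII members against 582 in KO saline members, and 796 CPM in WT AngII members against 233 in WT saline members. The 2 AngII levels of each gene lay close together and the saline levels apart; the difference between the genotypes was not tested. Of the cell cycle genes 9 of 13 were higher in KO members (median 3.70; 4.05 in other cells) and 6 of 8 in WT members (median 2.47; 1.83 in other cells). In fibroblast-low members the counts were 8 of 11 in KO (median 3.58) and 3 of 6 in WT (median 1.49). In members with Dlx5, Dlx6, Msx2 or Tfap2b, a setting chosen after seeing the data, they were 0 of 3 in KO (median -0.06) and 4 of 6 in WT (median 1.61). Of 17 neural crest and arch genes in KO members 0 were higher and 3, Foxf1, Meis1 and Ednra, were lower (median -0.44), and of 19 in WT members 1, Snai1, was higher and 4, Dlx1, Dlx2, Meis1 and Ednra, lower (median -0.52). Ednra had log2 ratios of -1.27 (-1.91 to -0.65) in KO and -1.18 (-1.68 to -0.68) in WT. Pde5a, which breaks down cyclic GMP, had 87.9 CPM in KO AngII members against 203 in KO saline members and 83.1 CPM in WT AngII members against 301 in WT saline members.

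The AngII ratio of the members was set beside that of the other Myh11 cells for the 8353 genes with enough counts in both genotypes. In 49 (0.587%) the members' ratio was at least 2-fold higher in both genotypes and in 28 (0.335%) at least 2-fold lower. Sox9 was among the lower ones: its log2 ratio was -0.14 in KO members and 1.81 in the other KO cells, and 0.05 in WT members and 1.92 in the other WT cells, while members held 99.4 CPM in KO saline and 93.3 CPM in WT saline. Col15a1, a basement membrane collagen, had ratios of 0.49 in KO members and 1.61 in the other KO cells, and 0.61 in WT members and 2.42 in the other WT cells. Pthlh had -1.07 in members and 0.22 in other cells of KO, and -0.69 and 0.72 in those of WT. Among the genes whose ratio was higher in members were Sfrp1, Ly6a, Pi16 and Fmod, known from fibroblasts. In fibroblast-low members their ratios were no longer 2-fold above those of the other cells. Pecam1 and Chad kept the difference. In fibroblast-low members Pecam1 had 0.01 in KO and -1.94 in WT, against -1.87 and -3.41 in other cells. Chad had 1.13 and -1.58, against -0.34 and -3.26. The fibroblast-low ratios were not limited to genes with enough counts in those members.

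Between genotypes fewer genes stood 2-fold apart. With AngII, 162 of 9279 genes (1.75%) were at least 2-fold higher in KO members than in WT members and 227 (2.45%) lower, with a median of -0.04 over all genes. Interferon-stimulated genes were lower: 10 of 18 were at least 2-fold lower and 0 higher (median -1.36; -0.81 in other cells). Ifit1, a sensor of viral RNA caps, gave 3 UMIs in KO AngII members and 67 in WT AngII members (0.932 against 19.2 CPM; log2 ratio -4.36, -6.68 to -2.76), and 85.1% of the WT UMIs lay in members rich in fibroblast transcripts. Iigp1, an interferon-induced GTPase, gave 1 UMI in KO AngII members and 36 in WT AngII members (log2 ratio -5.05, -10.40 to -2.48), and Irf7 had 4.66 CPM in KO AngII members against 24.4 in WT AngII members. In fibroblast-low members only 5 genes of the list had enough counts, of which 1 was lower (median -0.17). In members with Dlx5, Dlx6, Msx2 or Tfap2b, a setting chosen after seeing the data, 7 of 10 were lower and 0 higher (median -1.71). Of these members in WT AngII 18.9% were rich in fibroblast transcripts. Tmem173 itself, as given above, gave nearly the same count in the members of both libraries.

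Cholesterol synthesis genes were higher in KO AngII members in 12 of 18 cases (median 1.25; 0.99 in other cells), and in the fibroblast-low members also in 12 of 18 (median 1.17). Fdps, farnesyl diphosphate synthase, had 150 CPM in KO AngII members against 56.5 in WT AngII members (log2 ratio 1.41, 1.17 to 1.65), and Cyp51, a sterol demethylase, 51.6 against 16.9 CPM (1.61, 1.17 to 2.06). Among the named genes, Ccl7 had 545 CPM in KO AngII members against 73.9 in WT AngII members, Ccl2 had 333 against 64.8 CPM, Lif had 34.8 against 2.87 CPM and Il6 had 65.8 against 9.46 CPM. Of the KO AngII UMIs of Il6 96.7%, of Lif 98.2% and of Ccl7 96.9% lay in members rich in fibroblast transcripts; the log2 ratio of Ccl7 was 2.88 in all members and 1.31 in fibroblast-low members. Tnnt2 had 15.2 CPM in KO AngII members against 74.2 in WT AngII members (-2.29, -2.76 to -1.84), and -2.22 in fibroblast-low members; the other Myh11 cells had -0.89. Of its 259 UMIs in WT AngII members 55 lay in 1 cell, and 41 of these members held any. Lbp had 4.35 CPM in KO AngII members against 36.4 in WT AngII members, and 97.6% of the WT UMIs lay in members rich in fibroblast transcripts. Of the other named genes, Emcn gave 53 UMIs in 1 KO AngII member and 0 in WT AngII members, 77 of the 78 UMIs of Mest in KO AngII members lay in 1 cell, 49 of the 65 UMIs of Apod in WT AngII members lay in 1 cell, and Otor lay in 1 cell of each library, with 23 UMIs in KO AngII and 390 in WT AngII. These 4 genes describe single cells and not the members.

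With saline, 225 of 8567 genes (2.63%) were at least 2-fold higher in KO members than in WT members and 221 (2.58%) lower, with a median of -0.02. Nr1d1, a clock repressor, had 128 CPM in KO saline members against 27.0 in WT saline members (log2 ratio 2.24, 1.84 to 2.67; 2.43 in other cells), and Dbp had 75.9 against 19.2 CPM. Mthfd2, a mitochondrial folate enzyme, had 14.3 CPM in KO saline members against 165 in WT saline members (-3.52, -4.06 to -3.03; -3.13 in other cells). Mt1 had 1316 CPM in KO saline members against 8908 in WT saline members, Mt2 had 334 against 1922 CPM, and Fkbp5, a glucocorticoid target, had 7.55 against 59.5 CPM. Fabp4 (72.0 against 437 CPM) and Galnt15 (16.3 against 92.9 CPM) were also lower in KO saline members. These genes stood apart in the same direction in the other Myh11 cells, with log2 ratios there of -2.33 for Mt1, -2.38 for Mt2, -3.87 for Fkbp5, -2.19 for Fabp4 and -2.09 for Galnt15.

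Cxcl1, a neutrophil chemokine, had 52.5 CPM in KO saline members against 10.1 in WT saline members, and Pdzrn4 had 35.0 against 6.86 CPM. Of the 132 UMIs of Cxcl1 in KO saline members 58 lay in 1 cell and 70.5% in members rich in fibroblast transcripts. Pcp4, a calmodulin regulator, gave 40 UMIs in KO saline members and 2 in WT saline members (log2 ratio 4.12, 2.17 to 7.21; 0.65 in other cells). Comp, a cartilage matrix protein, gave 197 UMIs in KO saline members, 124 of them in 1 cell, and 19 in WT saline members. Of 22 immediate early and heat shock genes 9 were higher in KO saline members (median 0.80; 0.55 in other cells), also in 9 of 22 in fibroblast-low members. Fosb had 633 CPM in KO saline members against 247 in WT saline members, and Atf3, a stress-induced factor, 629 against 314 CPM. Cholesterol synthesis genes were higher in 6 of 15 cases (median 0.82; 0.27 in other cells), and Sqle, squalene epoxidase, had 23.9 CPM in KO saline members against 6.86 in WT saline members (log2 ratio 1.80, 0.96 to 2.72; 0.60 in other cells). The arch factors themselves were not constant between genotypes with saline: Dlx5 had 68.0 CPM in KO saline members against 112 in WT saline members, while Msx2 had 60.4 against 56.7 CPM.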

How the data were processed

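Cells, groups and libraries were taken from the labels: 4 libraries, 1 per group, each from 3 pooled mice. The authors deposited raw UMI counts per gene and cell, with no normalization, as read from the files; Cell Ranger and mm10 are named per the submitters' processing notes, with versions, annotation and cell filters not given in the sources used here. Every deposited cell was used. Counts were summed over members and over other cells of each library, divided by their total to give CPM, and compared as log2 ratios with 95% exact conditional intervals (scipy 1.17.1, numpy 2.4.6, pandas 2.3.3, Python 3.11.15); TMM factors came from edgeR 4.0.16 (R 4.3.3), which was used for nothing else. Intervals and floors cover counting error only, and no test was made with 1 library a group. Genes were eligible with at least 20 UMIs expected at the higher level in the smaller sum, and called when at least 2-fold apart. A sum of 0 was set to 3 UMIs. No doublet caller was run, so doublets remain, and an alternative left out cells above the 99th percentile of UMIs.

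Named genes, taken outside the rule, were the 14 with the highest lower interval bound and the 10 with the lowest upper bound over the 4 libraries. For comparisons between libraries 6 were named each way. In those, a gene's CPM had to reach 0.1 of that in phagocytes and in fibroblasts of the library. Mitochondrial, ribosomal, haemoglobin, Gm, Rik, Xist and Y-linked genes were left out; rule genes, Hox genes and genes of the lists were named as well. Fibroblast-low means under 10 UMIs of Dcn, Lum and Pdgfra. Members, lists and rules were chosen with earlier results of these data known. The interval calculation was tested on simulated data.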

Additional observations from a re-analysis of the deposited data

Results flagged for a closer look

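Mthfd2, a mitochondrial folate enzyme, moved in opposite directions between the AngII and saline libraries of the 2 genotypes. In KO members it had 56.2 CPM with AngII against 14.3 CPM with saline, a log2 ratio of 1.97. In WT members it had 33.8 CPM with AngII against 165 CPM with saline, a log2 ratio of -2.28. It was detected in 35.5% of KO AngII members, 26.0% of WT AngII, 8.9% of KO saline and 56.8% of WT saline members, so that WT saline was highest and KO saline lowest. Each group was 1 library, and the difference between the genotypes was not tested. Of 8353 genes with enough counts in both genotypes, 3 were at least 2-fold apart in opposite directions: Mthfd2, Gm19705 (log2 ratio -1.07 in KO and 1.08 in WT) and Sp110, an interferon-induced nuclear protein (-1.03 in KO and 1.07 in WT). The last 2 were named after their values were seen.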

How the results depend on the processing

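No paired analysis was possible because each group holds 1 library, and for the same reason no library could be left out of a group. The share of members in KO AngII, WT AngII, KO saline and WT saline, in that order, was 13.4%, 14.3%, 6.55% and 8.79% when 2 rule genes sufficed and 2.23%, 2.28%, 1.65% and 2.44% when 4 were needed. It was 2.20%, 2.70%, 2.05% and 3.03% for members with Dlx5, Dlx6, Msx2 or Tfap2b, a setting chosen after seeing the data. Thinned to 3000 UMIs it was 1.54%, 1.61%, 1.45% and 2.06%, and thinned to 5000 UMIs 2.40%, 2.13%, 1.97% and 2.71%. With at least 3 Myh11 UMIs the share was 3.56% in KO AngII and 3.69% in WT AngII, and without cells rich in fibroblast transcripts 3.16% and 3.62%. Genes at least 2-fold apart between members and other cells numbered 210, against 125 with at least 3 Myh11 UMIs in members, 123 without cells rich in fibroblast transcripts (104 of them among the 210) and 111 with a minimum of 50 UMIs. For AngII against saline, the counts with that minimum were 556 in KO (1086 at 20 UMIs) and 695 in WT (1235). In KO the count was 1722 with 2 rule genes, 590 with 4, 610 without cells rich in fibroblast transcripts, 534 for members with the 4 factors and 1670 with a minimum of 10 UMIs. For KO against WT with AngII (389) it was 598 with 2 rule genes, 259 without cells rich in fibroblast transcripts, 155 at 50 UMIs and 746 at 10. For KO against WT with saline (446) it was 183 at 50 UMIs and 776 at 10. With TMM factors the higher and lower genes were 597 and 567 for AngII in WT, and 197 and 196 for KO against WT with AngII. Otor, seen in 1 cell of each AngII library, turned its KO against WT direction with AngII, to a log2 ratio of 2.94 with 4 rule genes and 3.10 with at least 3 Myh11 UMIs, since the WT cell is then left out. With the other cells weighted to the members' UMIs per cell, genes apart between members and other cells numbered 202 (197 of them among the 210). Genes under about 20 UMIs in a library could not be judged.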
